A study of Saccharomyces cerevisiae with 3 samples.

Results

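The genes described here encode the proteins of the large (60S) subunit of the cytosolic ribosome of budding yeast. Members were taken by gene symbol, as RPL followed by a number, with or without A or B, together with RPP0, RPP1A, RPP1B, RPP2A and RPP2B. Of 81 genes with such a symbol in the RefSeq table, 78 were among the 6212 identifiers listed for the arrays. RPL36B, RPL41B and RPL43B were not matched to a listed identifier and were not analysed here. RPL38 was listed but blank on every array, so 77 members had a value in both replicates and 75 had one on all 3 arrays. Mitochondrial ribosomal proteins (MRPL genes) were not included.

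The 60S subunit forms peptide bonds and holds the tunnel through which the new protein leaves. Most of its proteins are encoded in yeast by a pair of genes, A and B, left over from an old genome duplication, whose products are identical or nearly so. Their genes are among the most highly transcribed of growing cells and are known to be switched together, through Rap1, Fhl1, Ifh1 and Sfp1, in answer to nutrients sensed by the TOR and protein kinase A pathways.

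The mutant carried tetO:HAL3, in which doxycycline shuts off HAL3, and vhs3::URA3, a disruption of VHS3, and it was set against wild type cells of the same JA100 background. Hal3 and Vhs3 inhibit the phosphatase Ppz1 and take part in coenzyme A synthesis. Cultures of both strains were kept in synthetic complete medium at 28 °C and had 100 µg/ml doxycycline for 15 h, so wild type cells met the drug as well. Each of 3 arrays held mutant and wild type cDNA in different dyes. Replicate 1 was hybridised on a first array with the mutant in Cy5 and on a swapped array with the mutant in Cy3, and replicate 2 on a single array with the mutant in Cy5.

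Every value below is the log2 of the mutant to wild type ratio, centred on the median of its array, so 1 is a 2-fold higher level in the mutant than in wild type relative to the average gene. Where 3 values are given, their order is the first array, the swapped array and the array labelled replicate 2. Replicate 1 is the mean of the first and the swapped array. The direction is the likely one rather than a stated one. It rests on the dyes named in the labels and on VHS3, at −2.06, −2.50 and 0.09, and HAL3 (SIS2 in RefSeq), at −1.33, −1.29 and −0.14. VHS3 was thus near 0 on the array labelled replicate 2, against its label. URA3, the marker placed in VHS3, was at −1.40, −0.82 and −0.33, lower in the mutant by this direction although the mutant carries the marker. Each array held 4728 to 4894 ratios with an SD of 0.35 to 0.70, narrowest on that last array, and with only 3 arrays the precision is limited throughout. Labels call the replicates biological without saying what separated them, so the p-values rest on these samples alone. The limma test used below draws each gene's variance partly from all genes, so its p-values do not measure a gene's own spread. Ratios are relative to the average gene, and a different amount of RNA per cell cannot be told apart from a different share of it.

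The 60S genes stood high on the first array and near the average gene on the other arrays. On the first array 72 of 76 members were above 0, with a median of 0.80 and a range from −0.48 to 1.42. On the swapped array, which is of the same replicate with the dyes exchanged, 41 of 76 were above 0 and the median was 0.02, with a range from −1.03 to 0.80. On the array labelled replicate 2, 38 of 77 were above 0, with a median of −0.01 and a range from −0.47 to 0.46. The 60S median thus lay at the 92.4th percentile of all genes on the first array, at the 52.0th on the swapped array and at the 48.9th on the last.

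The difference between the first and the swapped array ran the same way in all 75 members that were measured on both, being higher with the mutant in Cy5. Over all genes this was so in 2360 of 4546, or 51.9%. The median gap was 0.75 for the 60S genes and 0.03 over all genes. It ranged from 0.02 in RPL39 to 1.77 in RPL20A, which was at 1.26, −0.51 and −0.11. The array labelled replicate 2 also had the mutant in Cy5, and its 60S median was −0.01. Dye and array change together between the first and the swapped array, so they cannot be told apart in that pair. A limma fit over the 3 arrays with a dye term is given below with the other tests.

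**Figure D1:**
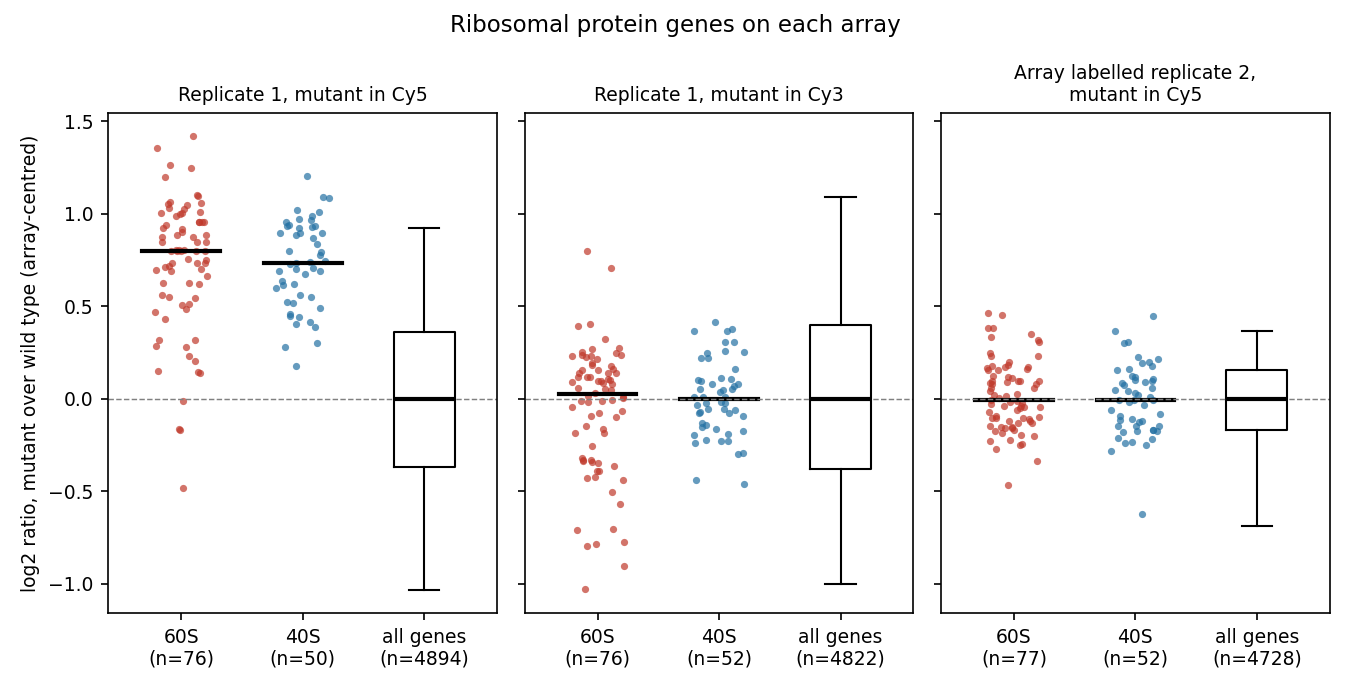
Log2 ratios of mutant over wild type (vertical axis, array-centred) on each of the 3 arrays for 60S ribosomal protein genes, 40S ribosomal protein genes and all genes. Each point is a gene, thick lines are medians, and the box for all genes spans the quartiles with whiskers at the 5th and 95th percentiles. The 60S points centre on 0.80 on the first array and near 0 on the other arrays.

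No 60S gene passed the test of the replicate mean against 0. By limma, 0 of 77 members and 0 of 4598 genes (0%) had an adjusted p under 0.05, and at an unadjusted p under 0.05 there was 1 member higher in the mutant and 0 lower, against 64 higher (1.39%) and 158 lower (3.44%) of all genes. VHS3 and HAL3, the genes altered in the mutant, did not pass either, each with an adjusted p of 0.9255 by limma. A count of 0 from this test therefore cannot show that the members were unchanged. Fitting the 3 arrays as if independent called 0 of 75 members and 16 of 4258 genes (0.376%). With the dye as a coefficient the fit called 0 of 75 members and 0 genes (0%), with a median strain coefficient of 0.22 for the members and a smallest adjusted p among them of 0.396. The dye fit also took the 3 arrays as independent, although the first and the swapped array share a replicate. Only the swapped array had the mutant in Cy3. The strain coefficient had 0 of 75 members at an unadjusted p under 0.05, against 559 of 4258 genes. The dye coefficient of that fit, positive where the ratio is higher with the mutant in Cy5, had a median of 0.18 over the members. It passed in 0 of 75 members and 0 genes (0%) after adjustment. At an unadjusted p under 0.05 it was positive in 3 of 75 members (4%), against 60 of 4258 genes (1.41%). It was negative in 0 members, against 163 of 4258 genes.

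By direction, 35 of 77 members were above 0 in both replicates and 9 were below, where all genes had 1222 of 4598 above (26.6%) and 1131 below (24.6%). Without the array labelled replicate 2, that is in replicate 1 alone, 65 of 77 were above 0. The count in both replicates depended on the array used for replicate 1. It was 38 of 76 with the first array alone and 24 of 76 with the swapped array alone. All-gene counts for these settings are not given here. On all 3 arrays 24 of 75 members were above 0, against 14.5% of all genes, and 4 were below, against 15.9%. Those 4 were RPL16A, RPL2A, RPL2B and RPP0. The mean over both replicates had a median of 0.21 and ran from −0.33 to 0.60, and the SD between replicates had a median of 0.27. The mean exceeded its own SD in 32 of 77 members (41.6%) and in 37.5% of all genes.

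Differences of at least 2-fold were seen on the first array and, in 1 gene, on the swapped array. On the first array 16 of 76 members were at least 2-fold higher, against 3.7% of all genes, and 0 were that much lower, against 5.52%. On the swapped array 0 members were at least 2-fold higher (6.1% of all genes) and 1, RPL4B, was at least 2-fold lower (5.04% of all genes). On the array labelled replicate 2 there were 0 either way, where all genes had 0.338% higher and 2.39% lower. No member was at least 2-fold higher in both replicates, against 0.283% of all genes, or lower, against 0.13%.

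**Figure D2:**
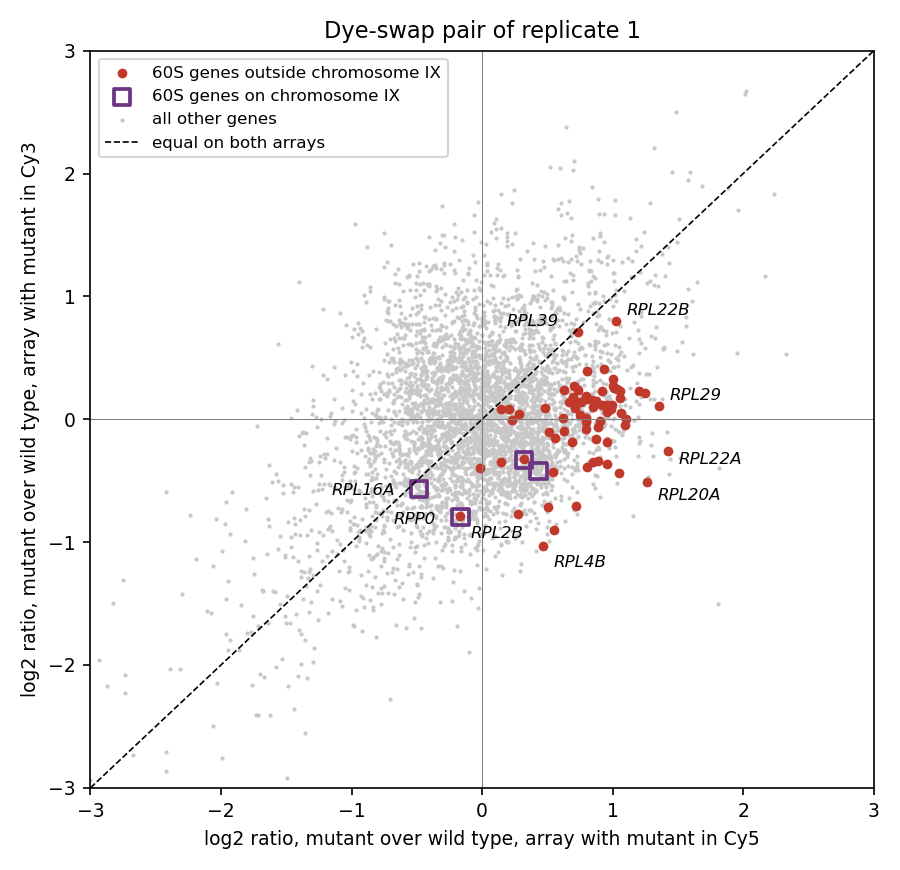
Log2 ratio of mutant over wild type on the first array (mutant in Cy5, horizontal) against the swapped array (mutant in Cy3, vertical), both from replicate 1. Red points are 60S genes, open squares 60S genes on chromosome IX and grey points other genes, 21 of 4471 of which lie beyond the axes. All 75 members lie below the dashed line of equal ratios.

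Among the 24 members above 0 on all 3 arrays, those with the highest means belong to several places in the subunit. RPL29, whose small protein joins the 60S late in the cytoplasm, was at 1.35, 0.11 and 0.46, a mean of 0.60 ± 0.19 (SD, n = 2 replicates). It was the 1 member under the unadjusted threshold in limma (adjusted p = 0.925). RPL29 was high on both arrays with the mutant in Cy5 and close to 0 on the swapped one.

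RPP2B, an acidic protein of the stalk that recruits translation factors, was at 0.70, 0.18 and 0.45, a mean of 0.45 ± 0.01 (SD, n = 2). Its replicates were nearly equal, though the arrays within replicate 1 were not. RPL36A was at 1.25, 0.21 and 0.09, and RPL19A, which helps bridge both subunits, at 0.80, 0.39 and 0.18. RPL43A was at 1.00, 0.12 and 0.20. Others above 0 on all 3 arrays with high means were RPL7A (1.07, 0.05 and 0.15), RPL23A (1.03, 0.25 and 0.08), RPL37A (1.10, 0.00 and 0.10), RPL30 (0.63, 0.24 and 0.23) and RPL31A (1.01, 0.25 and 0.02). In each of these the first array was the highest of the 3.

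At the low end, RPL16A was at −0.48, −0.57 and −0.15, a mean of −0.33 ± 0.27 (SD, n = 2). RPL2B, a protein close to the catalytic centre, was at −0.17, −0.80 and −0.10. Both genes lie on chromosome IX, described further below. RPP0, which anchors the stalk to the ribosome, was at −0.17, −0.79 and −0.04, and RPL2A at −0.01, −0.39 and −0.03. RPP0 and RPL2A, on chromosomes XII and VI, were thus lowest on the swapped array and between −0.17 and −0.01 on the others.

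Among the RPL genes with no second copy, all 9 measured were above 0 on the first array, as were 72 of 76 members and 49.9% of all genes. The 9 had medians of 0.73, 0.11 and −0.10, and 2 of 9, RPL29 and RPL30, were above 0 on all 3 arrays (14.5% of all genes). RPL3, whose protein reaches close to the site of peptide bond formation, was at 0.15, −0.34 and −0.25. RPL10, which joins last and completes that site, was at 0.51, −0.71 and −0.10. These had the lowest means of the group, and both were above 0 on the first array alone.

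RPL28, the gene of cycloheximide resistance also called CYH2, was at 0.95, −0.19 and −0.09. RPL5, which binds the 5S rRNA, was at 0.51, −0.10 and −0.13, and RPL25, the docking place for the signal recognition particle at the tunnel exit, at 1.00, 0.27 and −0.12. RPL32 was at 1.06, 0.17 and −0.01. RPL39, a short protein that lines the tunnel, had the smallest gap of all members between the arrays of replicate 1, at 0.73 and 0.71. RPL39 was, however, at −0.13 on the array labelled replicate 2. RPL30, which represses splicing of its own transcript, kept values of one sign at 0.63, 0.24 and 0.23.

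The stalk that recruits elongation factors is built on RPP0 and RPL12 and carries the P1 and P2 proteins. Of its 7 genes 6 were above 0 in both replicates (26.6% of all genes) and 1, RPP0, was below (24.6%). The medians of the 7 were 0.80, 0.01 and 0.08. RPP1A was at 0.95, 0.06 and 0.08, and RPP1B at 0.89, −0.34 and 0.06. RPP2A was at 0.48, 0.09 and 0.33. The base of the stalk was not uniform, since RPL12A (0.80, −0.02 and 0.18) and RPL12B (0.80, 0.01 and 0.01) stood above RPP0 on all 3 arrays. None of the 7 passed the test.

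Genes whose proteins lie at the catalytic centre or the tRNA sites (RPL2A, RPL2B, RPL3, RPL10, RPL28, RPL42A and RPL42B) had medians of 0.51, −0.34 and −0.10. On the array labelled replicate 2 all 7 were below 0, where 49.9% of all genes were above it. They lay between −0.25 and −0.03, a distance from 0 smaller than the SD of 0.35 over all genes of that array. RPL42A and RPL42B, at the exit site for tRNA, were at 0.70, 0.27 and −0.25 and at 1.06, 0.23 and −0.15. The 5S rRNA binding genes RPL5, RPL11A and RPL11B had medians of 0.56, −0.10 and −0.13. RPL11A was at 0.73, 0.24 and −0.47, the lowest member on the array labelled replicate 2, while RPL11B was at 0.56, −0.15 and 0.16.

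The L1 stalk genes RPL1A and RPL1B, whose protein guides spent tRNA out, had gaps of 1.42 and 0.97 between the first and the swapped array. RPL1A was at 0.72, −0.71 and −0.20, and RPL1B at 0.54, −0.43 and −0.02. The 14 genes of the tunnel and its rim had medians of 0.76, 0.03 and 0.05. Within them RPL4A and RPL4B, whose protein helps form the narrowest point of the tunnel, were at 0.55, −0.90 and 0.32 and at 0.47, −1.03 and −0.03, the lowest pair on the swapped array. Of the 13 tunnel genes measured on all 3 arrays, 4 were above 0 on each (14.5% of all genes) and 0 were below (15.9%). Those 4 were RPL19A, RPL19B, RPL26B and RPL31A. RPL35A was at 0.87, 0.15 and −0.17 and RPL35B at 1.10, −0.04 and −0.22.

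Of the genes whose proteins form bridges to the 40S subunit, RPL19B was at 0.71, 0.09 and 0.17. RPL24A and RPL24B were at 0.85, 0.10 and −0.05 and at 0.90, −0.01 and −0.07. RPL41A, the shortest of the proteins, was at 0.14 on the first array and 0.03 on the array labelled replicate 2, and blank on the swapped array. The bridge genes had medians of 0.76, 0.10 and 0.10. The 13 genes whose proteins join the 60S in the cytoplasm, RPL29 and RPL10 among them, had medians of 0.70, 0.06 and 0.04. Of these, 6 were above 0 in both replicates (26.6% of all genes) and 2 below (24.6%). No role group therefore left the pattern of a high first array, although the swapped array varied from −0.57 (L1 stalk) to 0.24 (genes under splicing control, RPL22A, RPL22B and RPL30) in its median.

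**Figure D3:**
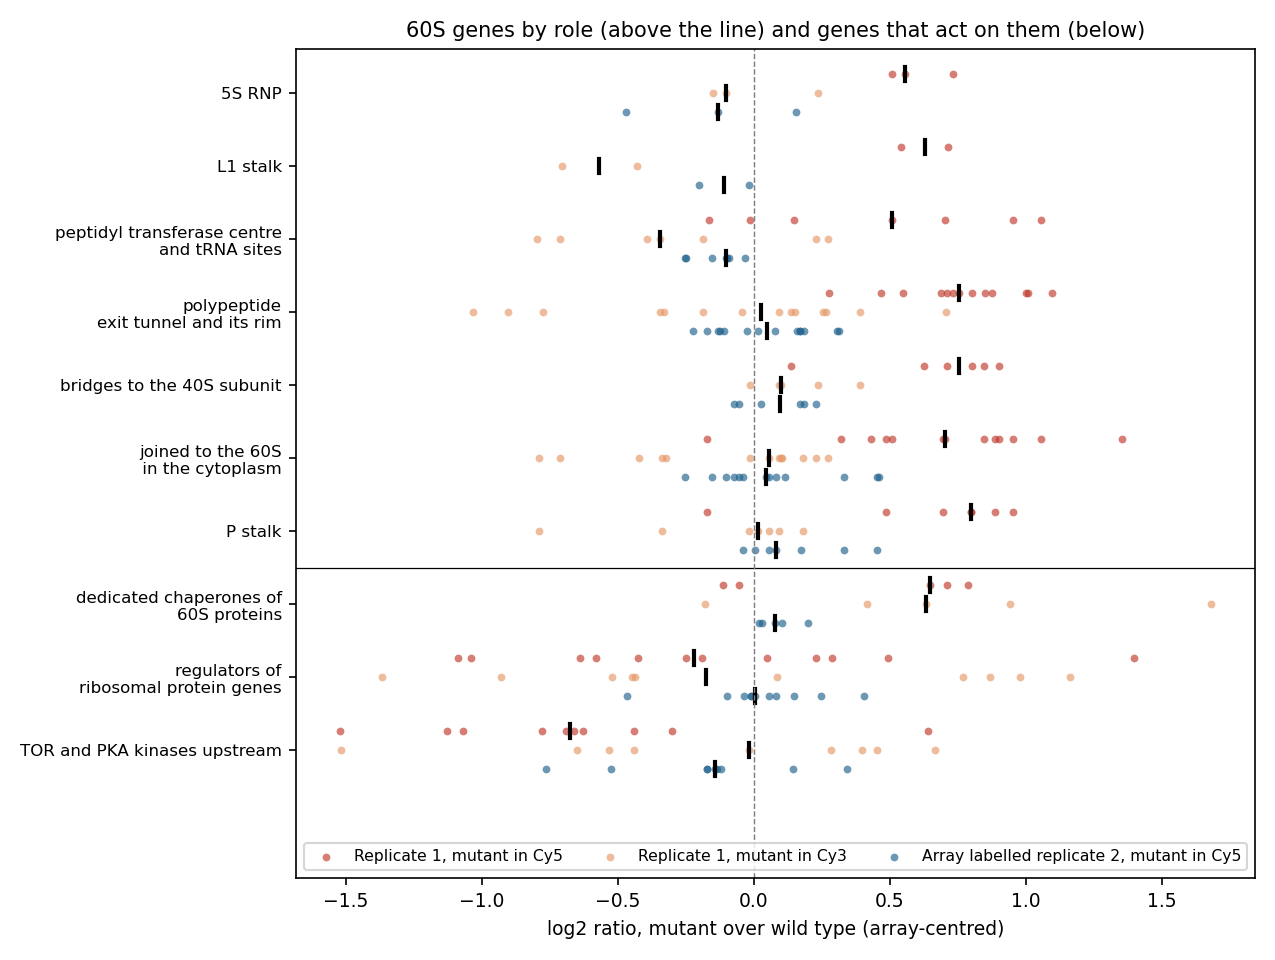
Log2 ratios of mutant over wild type (horizontal axis, array-centred) for 60S genes grouped by the place or role of the protein, and for genes that act on them, in 3 rows per group for the 3 arrays. Points are genes and black bars medians. Every 60S group has its highest median on the first array, whereas the dedicated chaperones have medians of 0.65 and 0.63 on both arrays of replicate 1.

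Paralogue pairs were compared on each array as A minus B. Both genes were listed for 32 of 35 pairs, RPP1A with RPP1B and RPP2A with RPP2B included, and 31 pairs were measured on all 3 arrays. The differences were small beside the median ratio of 0.80 on the first array, though not beside those of the other arrays. Their median size was 0.15 on the first array, 0.21 on the swapped array and 0.15 on the array labelled replicate 2. They were no larger than 0.25 in 24 of 31, 18 of 32 and 26 of 32 pairs, and over 0.5 in 3, 6 and 2 pairs. A probe for one paralogue may also bind transcripts of the other. Probe sequences were not used here, so small differences within a pair are uncertain.

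Neither copy was higher as a rule. The A gene was higher in 19 of 31, 15 of 32 and 17 of 32 pairs. The sign of the difference was the same on the first and the swapped array in 14 of 31 pairs, and it was the same in both replicates in 20. It was the same on all 3 arrays in 11 pairs, 7 with A higher and 4 with B higher. The differences are given as values with no test, and an exact sign-flip test with 2 replicates cannot go below p = 0.5. Across the 27 pairs without a chromosome IX gene, the correlation of the A minus B difference was −0.04 between the arrays of replicate 1 and −0.29 between replicates. Pairs are not independent samples, and their genes share the array.

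How far paralogues resembled each other depended on the array and, on the swapped array, on the measure. Across 27 pairs outside chromosome IX the ratios of A and B on the first array had a Pearson correlation of 0.62 and a Spearman correlation of 0.52. Across 28 pairs the Pearson and Spearman values were 0.31 and 0.13 on the swapped array, where both RPL4 genes were the lowest members, and 0.32 and 0.31 on the array labelled replicate 2. These are descriptions across genes of one array, where shared binding to near-identical probes can enter.

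The pairs that stayed closest were RPL15, RPL40, RPL24, RPL17 and RPL12. RPL15A was at 0.29, 0.05 and 0.38 and RPL15B at 0.20, 0.08 and 0.35. Its genes were never more than 0.08 apart, and both were highest on the array labelled replicate 2, unlike most members. RPL17A and RPL17B were at 0.85, −0.35 and 0.31 and at 0.69, −0.19 and 0.16. RPL12A and RPL12B were at the same ratio on the first array and at most 0.17 apart elsewhere.

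Of the pairs that kept one sign on all 3 arrays, RPL16 and RPL34 had the widest mean difference and both have a member on chromosome IX. RPP2A lay below RPP2B by 0.21, 0.09 and 0.12. RPL33A was at 0.96, 0.11 and −0.27 and RPL33B at 1.01, 0.33 and −0.18. The A gene was the higher one in RPL4, RPL9, RPL23 and RPP1. For RPL9 the difference was 0.12, 0.13 and 0.32, a mean of 0.22 ± 0.14 (SD, n = 2), with RPL9A at 0.75, 0.03 and 0.09 and RPL9B at 0.63, −0.09 and −0.23. For RPL23 it was 0.11, 0.13 and 0.27, and for RPL4 it was 0.08, 0.13 and 0.34. The replicates were closest in RPP2, with a mean difference of −0.13 ± 0.02, and RPL33, with −0.11 ± 0.03 (SD, n = 2 each), against 0.20 ± 0.11 in RPL23 and 0.22 ± 0.17 in RPL4.

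Some pairs stood far apart on 1 or 2 arrays and not on the rest, and were picked out after their values were seen. RPL31A was 0.73 and 1.03 above RPL31B on the arrays of replicate 1 and 0.15 below it on the array labelled replicate 2, with RPL31B at 0.28, −0.77 and 0.17. In RPL22, whose protein limits splicing of RPL22B, the A gene was at 1.42, −0.26 and 0.38 and the B gene at 1.02, 0.80 and −0.16. RPL22A was therefore higher than RPL22B on both arrays with the mutant in Cy5 and lower by 1.06 on the swapped array. RPL27 also turned over between the arrays of replicate 1, RPL27A being 0.25 below RPL27B on the first array and 0.63 above it on the swapped one. RPL26A, blank on the first array, was at −0.33 on the swapped array and −0.11 on the last, where RPL26B was at 0.14 and 0.08. RPL26A was thus 0.47 and 0.19 below RPL26B on the arrays that held both.

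**Figure D4:**
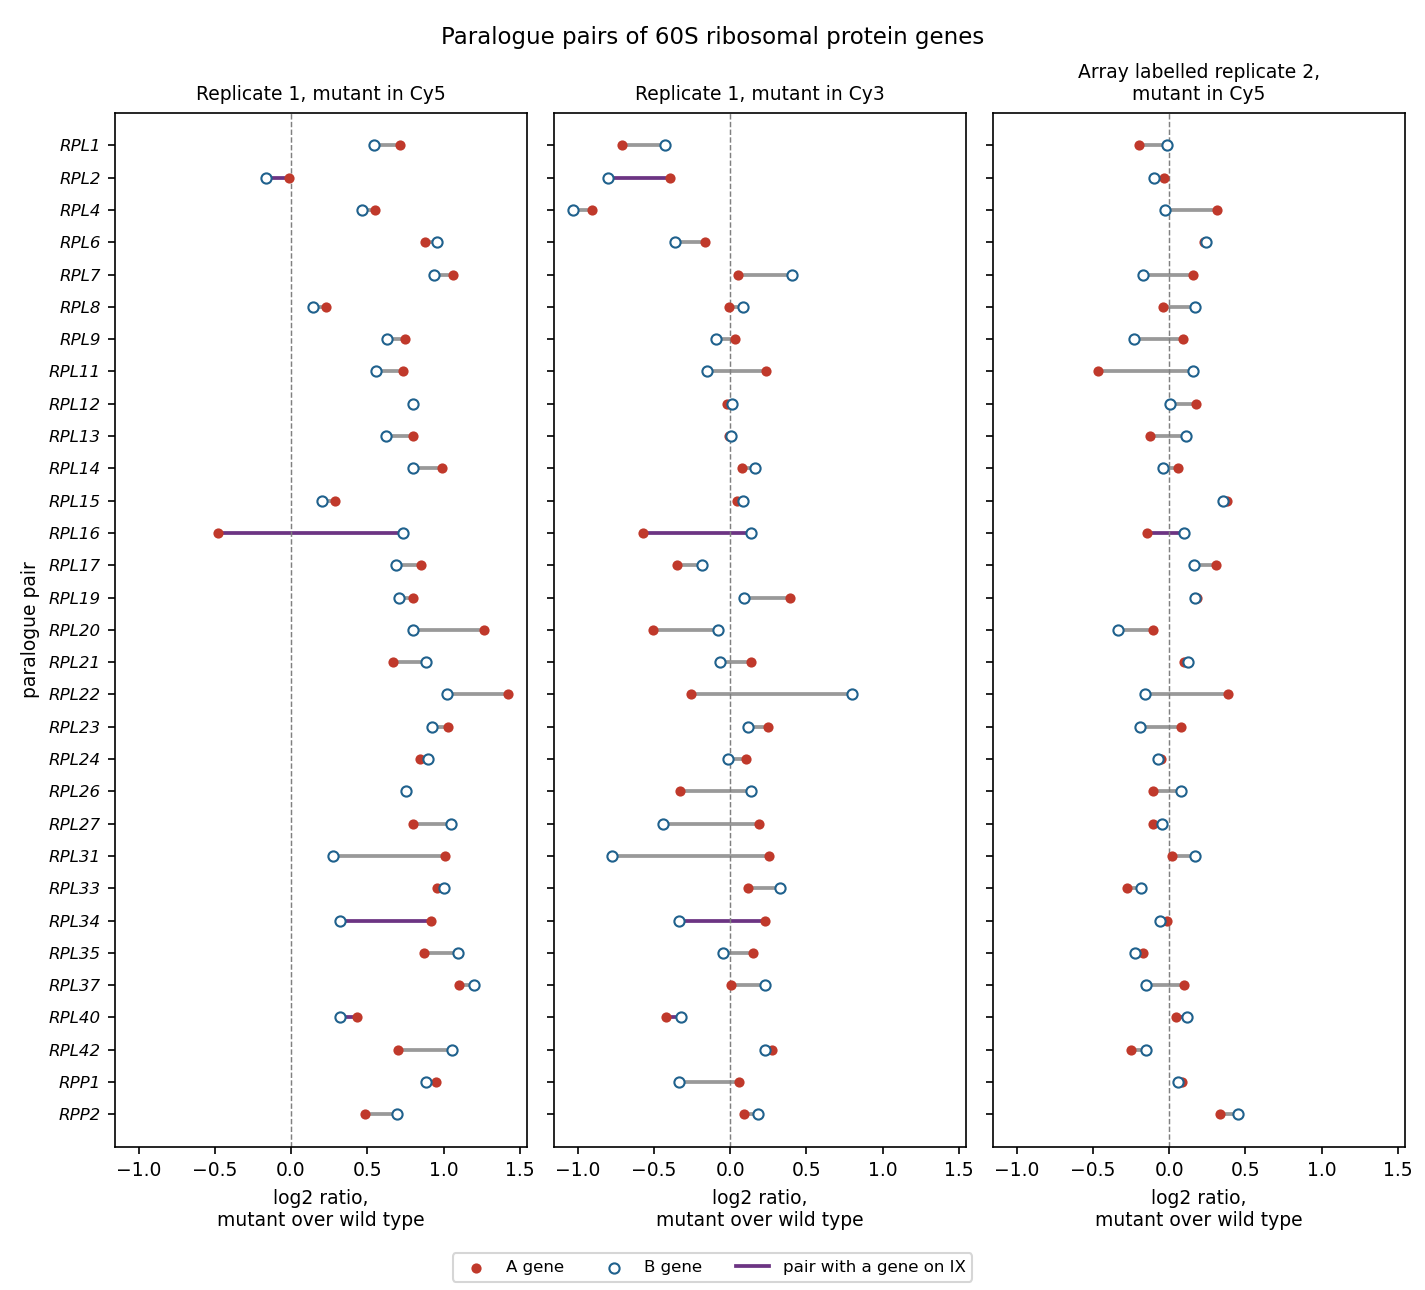
Log2 ratios of mutant over wild type (horizontal axis) of the A gene (filled) and B gene (open) of 31 of the 32 paralogue pairs on each of the 3 arrays, joined by a line that is purple where 1 gene lies on chromosome IX. RPL26A is blank on the first array. RPL16 and RPL34 are wide apart on both arrays of replicate 1 and closer on the array labelled replicate 2.

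Chromosome IX as a whole was low in replicate 1 and not on the array labelled replicate 2, with medians of −0.80, −0.62 and −0.05 over its genes. Its 4 60S members had medians of 0.08, −0.49 and −0.08, against 0.80, 0.05 and 0.01 for members on other chromosomes. Set against their paralogues elsewhere, the chromosome IX genes differed by a median of −0.38 on the first array, −0.48 on the swapped array and −0.07 on the last. The chromosome IX gene was the lower one in 3, 4 and 4 of 4 pairs.

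The pairs differed in how far they did so. RPL16A, on IX, was 1.21, 0.71 and 0.24 below RPL16B, on XIV, which was at 0.73, 0.14 and 0.10. RPL34B, on IX, was at 0.32, −0.33 and −0.06, and RPL34A, on V, at 0.92, 0.23 and −0.01. These pairs were apart on both arrays of replicate 1, whichever dye held the mutant, and both kept their sign with a smaller gap on the array labelled replicate 2, 0.24 for RPL16 and 0.05 for RPL34. RPL2B was 0.15, 0.40 and 0.07 below RPL2A. RPL40A, on IX, was at 0.43, −0.42 and 0.04, and RPL40B, on XI, at 0.32, −0.32 and 0.12, so this pair showed no gap of one sign. RPL40A and RPL40B both encode ubiquitin fused to the same ribosomal protein. The gene dosage of chromosome IX and shared probe binding were not tested.

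On the array labelled replicate 2, 28 of 426 genes on chromosome VII and 20 of 226 on chromosome VIII were at least 2-fold lower. Over all genes this was so in 113 of 4728 (2.39%). Chromosomes VII and VIII carry 13 members. Their medians were 0.80, 0.05 and −0.04, against 0.80, 0.01 and 0.01 for members elsewhere. The members on XII had the lowest median on the first array after those on IX, 0.40, together with −0.33 and 0.17. They were spread widely on the first array. RPP0, RPL10, RPL8B, RPL15A and RPL31B were at −0.17, 0.51, 0.14, 0.29 and 0.28 there. RPL22A, RPL37A and RPL6B, also on XII, were at 1.42, 1.10 and 0.96, and RPL22A was the highest of all members. RPL8A and RPL8B, of VIII and XII, were at 0.23, −0.01 and −0.04 and at 0.14, 0.09 and 0.17. In both genes the gap between the first and the swapped array was small. Gene length, introns included, correlated with the member ratios at −0.11, −0.19 and −0.22 across 75 members, a weak relation on every array.

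The 40S ribosomal protein genes had nearly the same medians as the 60S genes. The 60S medians of 0.80, 0.02 and −0.01 stood beside 40S medians of 0.73, −0.00 and −0.01. The ratio was higher with the mutant in Cy5 in 75 of 75 60S genes and in 49 of 50 40S genes. The 60S genes were the more spread on both arrays of replicate 1. Their SD was 0.36 on the first and 0.35 on the swapped array, against 0.24 and 0.21 for the 40S genes. On the array labelled replicate 2 the SD was 0.19 in both groups. Across genes, the arrays of replicate 1 correlated at 0.46 for the 60S genes and −0.11 for the 40S genes. Without its chromosome IX members the 60S value was 0.37, and no such value was taken for the 40S genes. The difference between the subunits was not tested.

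The chaperones that guard single 60S proteins before assembly did not share the gap between the first and the swapped array. Their ratio was higher with the mutant in Cy5 in 3 of 5. Of the 5 genes, 4 were above 0 in both replicates (26.6% of all genes) and 0 below (24.6%). Their medians were 0.65, 0.63 and 0.08 (adjusted p in limma of 0.925 or higher for each). SYO1, which carries Rpl5 and Rpl11 into the nucleus, was at 0.65, 1.68 and 0.20. BCP1, the chaperone of Rpl23, was at 0.71, 0.63 and 0.02. SQT1, the chaperone of Rpl10, lies on chromosome IX and was at 0.79, 0.42 and 0.03. RRB1 was at −0.11, 0.94 and 0.11, and ACL4 at −0.055, −0.18 and 0.08. In SYO1 and RRB1 the swapped array was the higher one of replicate 1, the reverse of what every measured 60S gene showed.

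The transcription factors that act on these genes had no common direction. Of 11 regulators measured in both replicates 3 were above 0 in both (26.6% of all genes) and 4 below (24.6%). The exceptions in size were a pair of related repressors of ribosome biogenesis genes that went opposite ways on all 3 arrays. TOD6 was at 1.40, 1.16 and 0.41 and DOT6 at −0.64, −1.37 and −0.46, both with an adjusted p of 0.887 in limma. Among the activators the arrays of replicate 1 had opposite signs, with IFH1 at −0.19, 0.98 and 0.00, FHL1 at −1.04, 0.77 and −0.10, SFP1 at 0.23, −0.52 and −0.01, and RAP1 at −0.25, 0.09 and 0.06.

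Of 9 TOR and protein kinase A genes measured in both replicates 0 were above 0 in both (26.6% of all genes) and 5 were below (24.6%). Over that list the medians were −0.68, −0.02 and −0.14. BCY1, the inhibitory subunit of protein kinase A, was at −1.07, −1.52 and −0.14 and lies on chromosome IX. LST8, a subunit of the TOR complexes, was at −0.30, −0.53 and −0.52, and TPK2, a catalytic subunit of protein kinase A, at −0.66, −0.44 and −0.17. None of the genes in these lists passed limma's test, and 0.887 was their smallest adjusted p.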

How the data were processed

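The authors deposited 1 log2 ratio per gene and array. The sources used here do not give the background correction, spot filter, normalization or array build, and the numerator of the ratio and the meaning of a blank are not stated. The log base was read from the values. With 2 raised to them, 100% were whole multiples of 0.001 within rounding, against 9.94 to 11.4% with the sign turned. The swapped array correlated with its partner at 0.51 over all genes, so it was taken as turned already. RNA was 8 µg per labelling, per the labels' protocols.

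Each array was centred on its median (0.0229, 0.0072 and 0.0468 as deposited). The dye-swap pair was averaged into 1 replicate, or the 1 value present was used. Names and chromosomes came from RefSeq R64, which named 5662 of 6212 identifiers. The test of mean ratios used limma (version 3.58.1, R version 4.3.3; lmFit, eBayes, n = 2 replicates, 4598 genes, two-sided, Benjamini-Hochberg at 0.05), which was tested on simulated data first. Lists are described by counts and medians. Wild type was measured as the partner channel on each array and has no spread of its own.

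Members, gene lists, the groups by chromosome and the rule for named genes (chromosome IX members and paralogues, the highest and lowest means with one sign on 3 arrays, the widest and closest pairs, genes without a second copy, stalk genes, and up to 3 genes per other list) were chosen with earlier results of these data known. The single values of 1 paralogue pair are not reported here, though counts and medians include it.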

Additional observations from a re-analysis of the deposited data

How the results depend on the processing

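The count of 60S genes past the test was 0 under all 13 alternatives that have a test, centring, scale, quantile normalization, the variance prior, the dye and the threshold included. With n = 2 replicates the main fit passed none of the genes, VHS3 and HAL3 included, so this 0 says little about the members. With 1 replicate left out there is no test, and 0 members were at least 2-fold different either way. The median of replicate 1, 0.40, was 0.80 when taken from its Cy5-mutant array and 0.0234 when taken from its Cy3-mutant array, and between 0.31 and 0.42 otherwise. The median absolute difference within pairs in replicate 1, 0.12, was 0.15 and 0.21 from those single arrays, 0.0922 with arrays scaled to the same median absolute deviation and 0.10 with quantile normalization. On the array labelled replicate 2 it was 0.15, against 0.26 with that scaling and 0.32 with quantile normalization. Leaving out a replicate gave 38 (without replicate 1) to 65 (without replicate 2) members above 0, against 35 in both, an alternative chosen after seeing the data. With the swapped array alone as replicate 1, 24 of 76 members were above 0 in both replicates. The replicate 2 median stayed between −0.01 and 0.04, its sign not fixed. Over all genes, 0 calls became 13 with the swapped array alone as replicate 1, 4 with scaling, 11 with quantile normalization and 16 with 3 independent arrays. The cause was not tested. Each ratio already pairs mutant and wild type within an array. No paired analysis was possible because, beyond that, the labels give 1 group of ratios and no second group that shares its replicate numbers. Intensities were not used here, so the signal over background is unknown for every ratio.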

Other observations

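Among protein-coding genes of the RefSeq table, 2 sets of 60S genes are immediate neighbours. RPL24A and RPL30, on chromosome VII, were at 0.85, 0.10 and −0.05 and at 0.63, 0.24 and 0.23 on the first array, the swapped array and the array labelled replicate 2. RPL13A and RPP1A, on chromosome IV, were at 0.80, −0.01 and −0.12 and at 0.95, 0.06 and 0.08. Both sets shared the high first array, and on the array labelled replicate 2 their genes lay on opposite sides of 0.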
